A study of Mus musculus with 20 samples.

Results

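The matrix metalloproteinase (MMP) genes Mmp2, Mmp3, Mmp9, Mmp14, Mmp17 and Mmp19 and the tissue inhibitor of metalloproteinase genes Timp1, Timp2, Timp3 and Timp4 were followed through RNA sequencing of whole mouse abdominal aorta. They were chosen by name with earlier results of these data known. As 6 proteases and 4 inhibitors, they are 10 of the 43422 genes listed in each library. The 20 libraries fall into 4 groups of 5 mice, all given on the labels as C57BL/6 and 6 months old. Wild-type (WT) mice and mice with a knockout of lysyl hydroxylase 1 (LH1, gene Plod1; Plod1-/-) received saline or Ang II at 1000 ng/kg per minute from an implanted osmotic pump for 14 days. Ang II (angiotensin II) is a pressor peptide, and its infusion is a standard model of dissecting abdominal aortic aneurysm. LH1 hydroxylates lysines of collagen that later form cross-links. The age on the labels is older than the age the study's methods give at pump implantation, and the methods describe male mice of the substrain C57Bl/6NCrl.

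MMPs are zinc-dependent enzymes made as inactive precursors, and between them they cut collagens, gelatin, elastin, proteoglycans and other matrix proteins. Mmp2 and Mmp9 encode gelatinases, Mmp3 encodes stromelysin 1, Mmp14 and Mmp17 encode proteases held at the cell membrane, and Mmp19 encodes a further secreted protease. TIMPs bind 1 protease to 1 inhibitor through the amino end of the TIMP, which sits in the active site cleft. The pairs are not interchangeable. TIMP1 is a weak inhibitor of MMP14. TIMP2 also serves as the bridge by which MMP14 activates pro-MMP2, and TIMP3 is bound to the matrix and inhibits related adamalysins as well. RNA levels say nothing of how much precursor has been activated.

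The coding stretches below are shown because they define what makes a member a protease or an inhibitor. They were read from the GENCODE transcripts on build GRCm38 (mm10), 5′ to 3′. In each protease, the 33 bases encode the catalytic zinc site, and capitals mark the codons of the 3 zinc-binding histidines and of the catalytic glutamate. Each of these stretches lay within a single coding exon.
Mmp2 (chr8:92839279-92839311, + strand, exon 8 of 13): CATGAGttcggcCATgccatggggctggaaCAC
Mmp9 (chr2:164951133-164951165, + strand, exon 8 of 13): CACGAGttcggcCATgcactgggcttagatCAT
Mmp3 (chr9:7449775-7449807, + strand, exon 5 of 10): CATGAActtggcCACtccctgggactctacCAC
Mmp14 (chr14:54437627-54437659, + strand, exon 5 of 10): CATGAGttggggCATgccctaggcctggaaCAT
Mmp17 (chr5:129596597-129596629, + strand, exon 5 of 10): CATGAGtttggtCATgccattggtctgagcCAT
Mmp19 (chr10:128795673-128795705, + strand, exon 5 of 9): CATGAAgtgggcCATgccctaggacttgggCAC
In each inhibitor, the 39 bases encode the amino end of the mature protein, which starts with the cysteine that chelates the zinc of the protease. Capitals mark the codons of the 3 cysteines.
Timp1 (chrX:20871111-20871149, + strand, exon 2 of 6): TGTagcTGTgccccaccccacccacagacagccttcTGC
Timp2 (chr11:118354974-118355012, - strand, exon 1 of 5): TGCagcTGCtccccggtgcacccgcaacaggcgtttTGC
Timp3 (chr10:86300923-86300961, + strand, exon 1 of 5): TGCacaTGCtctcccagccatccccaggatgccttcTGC
Timp4 (chr6:115251653-115251691, - strand, exon 1 of 5): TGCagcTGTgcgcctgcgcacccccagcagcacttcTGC

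Levels are given as FPKM, the fragment number of a gene divided by its transcript length and by the mapped reads of the library, so that levels of different genes can be set side by side. Read depth is not known from these values, and the precision of each mean comes only from the 5 mice of the group. Plod1 was listed at 22.8 to 29.7 FPKM in the WT libraries, and its highest value among the Plod1-/- libraries was 0.0415 FPKM. Xist, a female-specific RNA, stood above 1 FPKM in 2 libraries, those of Ang II-treated Plod1-/- mouse 1 (7.93 FPKM) and saline-treated Plod1-/- mouse 5 (15.1 FPKM). Smooth muscle markers were abundant in every library, at a summed level of 2300 to 20700 FPKM over 7 genes, although Tagln was listed at no more than 12.2 FPKM. Both Ang II-treated mice numbered 1 stood apart from their groups. WT mouse 1 had macrophage markers at a summed 1690 FPKM against 290 to 440 in the other 4, and Plod1-/- mouse 1 had smooth muscle markers at 16800 FPKM against 2300 to 6160. Ang II-treated WT mouse 4 also stood apart. Its smooth muscle sum was 17000 FPKM against 5510 to 10500 in the other 4, and its adipocyte marker sum 882 FPKM against 3540 to 5090. Its share of FPKM from mitochondrial genes was 14.6% against 20.8% to 29.1%. Calls that change without the mice numbered 1 are given both ways. In whole aorta, fewer cells of a type and less RNA per cell cannot be told apart.

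In saline-treated WT aortas, Timp2 had the highest level of the 10 genes, and Mmp9 and Mmp19, whose ranges overlapped, had the lowest. Timp2 stood at 282 ± 27.4 FPKM (SD, n = 5), Mmp3 at 117 ± 30, Timp1 at 68.8 ± 27.7 and Mmp2 at 65.5 ± 15.1. The ranges of Mmp3, Timp1 and Mmp2 overlapped, so their order is not resolved, whereas the range of Timp2 lay above all others. Timp3 (35 ± 7.58 FPKM), Mmp14 (30.3 ± 2.61) and Mmp17 (19.9 ± 3.75) followed, and Timp3 and Mmp14 overlapped. The lowest levels were those of Timp4 (8.64 ± 2.98 FPKM), Mmp19 (4.35 ± 0.575) and Mmp9 (2.66 ± 1.6). In Ang II-treated Plod1-/- aortas the order differed, with Timp1 first at 636 ± 232 FPKM and above the whole range of Timp2 (145 ± 25.7), and Timp4 with the lowest mean at 6.29 ± 3.62. Mmp9 had the sixth highest mean there, at 35.6 ± 29.1 FPKM, and the ranges of neighbours from Timp2 down to Timp4 overlapped.

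**Figure D1:**
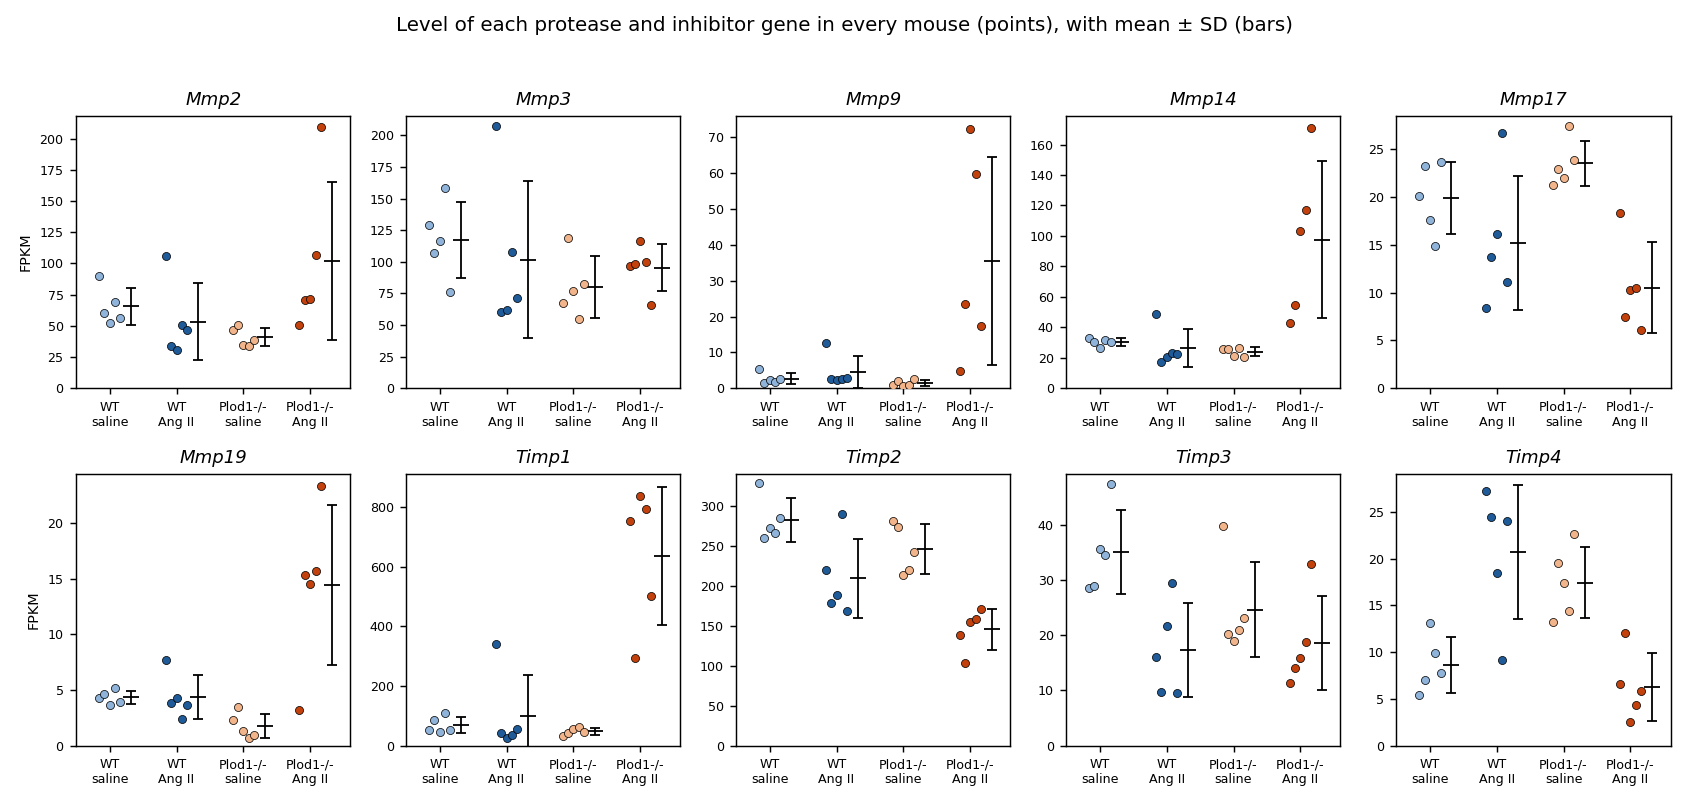
FPKM (linear axis from 0) of the 10 genes in each of the 20 mice, 1 panel per gene, with 1 point per mouse in numbered order and the group mean ± SD beside the points (the lower bar of Timp1 in Ang II-treated WT mice runs below 0 and is cut by the axis). Timp1 lay between 293 and 837 FPKM in the Ang II-treated Plod1-/- mice, and between 26.3 and 342 FPKM in the other 15.

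Each pair of groups was compared with limma on log2(FPKM + 1) over every gene with at least 1 FPKM in at least 5 of the 10 mice. A gene was called at a Benjamini-Hochberg adjusted p below 0.05 with a log2 difference above 1 in size, and the adjustment ran over all genes tested. The pseudocount of 1 understates the change of low genes. All 10 members were tested in every comparison. The p-values set each difference against the spread between mice, with variances moderated toward a trend over all genes tested.

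The gelatinases rose with Ang II in Plod1-/- mice. Mmp9, which encodes a gelatinase made by macrophages and stored by neutrophils, stood at 1.01, 1.87, 0.495, 0.981 and 2.63 FPKM in saline-treated Plod1-/- mice 1 to 5. In the Ang II-treated Plod1-/- mice it stood at 4.65, 23.5, 72.4, 59.9 and 17.4 FPKM. Every Ang II-treated mouse was above every saline-treated mouse, and mice 3 and 4 were highest. The log2 difference was 3.50 (SE 0.615, adjusted p = 0.00122). In WT mice, Mmp9 stood at 5.39, 1.44, 2.28, 1.58 and 2.61 FPKM under saline and at 12.6, 2.69, 2.28, 2.43 and 2.77 FPKM under Ang II. The WT groups overlapped, mouse 1 was the highest of each, and the log2 difference was 0.43 (SE 0.394, adjusted p = 0.387). The Plod1-/- response exceeded the WT response by 3.06 log2 units (SE 0.774, adjusted p = 0.00529).

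Mmp2, the gelatinase that vascular cells make without stimulation, rose less. In Plod1-/- mice it stood at 46.5, 50.5, 34.2, 34 and 39 FPKM under saline and at 50.7, 71, 71.3, 107 and 209 FPKM under Ang II. The groups did not overlap, but the lowest Ang II-treated mouse, mouse 1, was only just above the highest saline-treated one, and mouse 5 was far above the rest. The log2 difference was 1.13 (SE 0.325, adjusted p = 0.0167), and without Ang II-treated mouse 5 it was 0.83, under the size threshold. Mmp2 in WT mice stood at 90.1, 60.2, 51.9, 69.1 and 56.3 FPKM under saline and at 106, 33.6, 30.6, 50.4 and 46.4 FPKM under Ang II. Of the Ang II-treated WT mice, 4 were below every saline-treated mouse and mouse 1 was above them all, and the log2 difference was -0.41 (SE 0.295, adjusted p = 0.275). With 1 mouse left out at a time it ran from -0.691 to -0.252 (adjusted p 0.0237 to 0.516 by limma). The responses of the genotypes differed by 1.54 log2 units (SE 0.464, adjusted p = 0.0146).

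Mmp3, the stromelysin that cuts proteoglycans and activates other pro-MMPs, was the protease with the highest mean level in both saline groups and passed no comparison. In Plod1-/- mice it stood at 67.4, 119, 77.1, 54.4 and 82.7 FPKM under saline and at 96.8, 98.5, 116, 99.8 and 65.6 FPKM under Ang II. The groups overlapped widely, with a log2 difference of 0.27 and a 95% confidence interval of -0.20 to 0.74. In WT mice Mmp3 ran from 76.4 to 158 FPKM under saline and from 60.1 to 207 FPKM under Ang II, the highest value again being that of mouse 1.

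Of the membrane-held proteases, Mmp14 rose and Mmp17 fell in Plod1-/- mice. Mmp14 encodes the collagenase of the cell surface that activates pro-MMP2. It stood at 25.7, 25.8, 21.1, 26.6 and 20.7 FPKM in the saline-treated Plod1-/- mice and at 42.6, 54.6, 103, 117 and 171 FPKM in the Ang II-treated ones. The groups did not overlap, and the log2 difference was 1.82 (SE 0.330, adjusted p = 0.00146). Mmp14 in WT mice stood at 33.1, 30.5, 26.1, 31.5 and 30 FPKM under saline and at 48.4, 17.3, 20.3, 23.2 and 22.6 FPKM under Ang II, and mouse 1 alone kept these groups from separating downward. The log2 difference in WT mice was -0.28 (SE 0.226, adjusted p = 0.324). With 1 mouse left out at a time it ran from -0.521 to -0.162 (adjusted p 0.0114 to 0.597 by limma). The difference between the responses was 2.10 (SE 0.419, adjusted p = 0.00112).

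Mmp17 encodes a protease attached to the membrane by a lipid anchor and active against few matrix proteins. It stood at 21.3, 22.9, 22, 27.4 and 23.9 FPKM in saline-treated and at 18.3, 7.4, 10.3, 10.5 and 6.06 FPKM in Ang II-treated Plod1-/- mice. All Ang II-treated mice were lower than all saline-treated mice, mouse 1 least so, with a log2 difference of -1.17 (SE 0.231, adjusted p = 0.00235). In WT mice, Mmp17 ran from 14.9 to 23.7 FPKM under saline and from 8.36 to 26.7 FPKM under Ang II (log2 difference -0.45, SE 0.253, adjusted p = 0.173). The responses differed by -0.73 (95% confidence interval -1.48 to 0.03, adjusted p = 0.119), and by -1.11 (adjusted p = 0.0058) without both Ang II-treated mice numbered 1.

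Mmp19 encodes a secreted protease of basement membrane components. It stood at 2.33, 3.46, 1.36, 0.734 and 0.99 FPKM in saline-treated and at 3.22, 15.3, 14.5, 15.7 and 23.3 FPKM in Ang II-treated Plod1-/- mice. Mouse 1 of the Ang II-treated group lay within the saline range, and the other 4 lay well above it. The log2 difference was 2.36 (SE 0.439, adjusted p = 0.00168), against -0.06 (SE 0.207, adjusted p = 0.826) in WT mice, and the responses differed by 2.42 (SE 0.509, adjusted p = 0.00162). The Mmp19 gene lies wholly within the span of an antisense gene, Gm47093, and shares 789 bases with Tmem198b on the opposite strand. The kit named in the methods does not mark strand. Only whole gene spans were compared, so how far reads of these genes mix is not known.

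Among the inhibitors, Timp1 alone rose in Plod1-/- mice, by more than any other member on the log2(FPKM + 1) scale. By the ratio of mean FPKM it rose 13.2-fold, after Mmp9 (25.4-fold). Timp1 encodes the soluble inhibitor that tissue injury and inflammatory cytokines induce. It stood at 31.6, 43.5, 57.2, 62 and 46.9 FPKM in saline-treated and at 752, 293, 837, 795 and 502 FPKM in Ang II-treated Plod1-/- mice. The groups were far apart, and mouse 1, the lowest of its group for Mmp9, Mmp14 and Mmp19, was here the middle value. The log2 difference was 3.63 (SE 0.299, adjusted p = 3.09e-05). In WT mice, Timp1 stood at 51.7, 85.6, 45.7, 109 and 51.5 FPKM under saline and at 342, 42.5, 26.3, 37.5 and 56 FPKM under Ang II. Mouse 1 was above, and 3 of the other 4 Ang II-treated mice below, every saline-treated WT mouse, so the WT log2 difference of -0.09 (SE 0.578, adjusted p = 0.905) has a 95% confidence interval of -1.36 to 1.17. The responses differed by 3.72 (SE 0.703, adjusted p = 7.59e-04). Timp1 lies within the gene Syn1 on the opposite strand, and Syn1 was listed at 0.577 FPKM on average in saline-treated and 3.81 FPKM in Ang II-treated Plod1-/- mice. The part of this overlap in the Timp1 values was not tested.

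Timp4, an inhibitor gene most active in heart and fat, moved in opposite directions in the 2 genotypes. In WT mice it stood at 5.38, 7.04, 13.1, 9.94 and 7.74 FPKM under saline and at 27.2, 24.5, 18.5, 9.21 and 24 FPKM under Ang II. Mouse 4 of the Ang II-treated group lay within the saline range and the others above it, with a log2 difference of 1.14 (SE 0.286, adjusted p = 0.0123). In Plod1-/- mice Timp4 stood at 13.2, 19.5, 17.4, 14.4 and 22.6 FPKM under saline and at 6.6, 12.1, 2.5, 4.36 and 5.85 FPKM under Ang II. These groups did not overlap, and the log2 difference was -1.45 (SE 0.303, adjusted p = 0.00326). The difference between the responses was -2.59 (SE 0.440, adjusted p = 3.39e-04). Timp4 lies within Syn2 on the opposite strand. Syn2 averaged 0.917 and 1.88 FPKM in WT mice (saline, then Ang II) and 1.23 and 6.61 FPKM in Plod1-/- mice. Its mean moved with that of Timp4 in the WT response and between genotypes under saline. It moved against Timp4 in the Plod1-/- response and between genotypes under Ang II. The part of this overlap was not tested.

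Timp2 and Timp3 had lower means with Ang II in both genotypes, but only Timp3 in WT mice passed the call on size and p. Timp2 stood at 281, 274, 213, 220 and 242 FPKM in saline-treated and at 139, 104, 155, 158 and 171 FPKM in Ang II-treated Plod1-/- mice, without overlap. Its log2 difference of -0.76 (SE 0.154, adjusted p = 0.00259) passed on p but not on size, as did -0.45 (SE 0.157, adjusted p = 0.0411) in WT mice, and the responses did not separate (difference -0.31, 95% confidence interval -0.77 to 0.15). Timp3 stood at 28.5, 28.9, 35.6, 34.5 and 47.3 FPKM in saline-treated and at 16.1, 9.7, 21.6, 29.5 and 9.47 FPKM in Ang II-treated WT mice. Mouse 4 was again the Ang II-treated mouse within the saline range, and the log2 difference was -1.08 (SE 0.284, adjusted p = 0.0152). It fell under the size threshold without saline-treated mouse 5 (-0.97), Ang II-treated mouse 2 (-0.92) or Ang II-treated mouse 5 (-0.91). In Plod1-/- mice, Timp3 ran from 19 to 39.7 FPKM under saline and from 11.3 to 32.9 FPKM under Ang II (log2 difference -0.42, SE 0.277, adjusted p = 0.239). The responses of Timp3 differed by 0.65 (95% confidence interval -0.23 to 1.53, adjusted p = 0.228), and by 1.09 (adjusted p = 0.0169), past the call, with weights per mouse. Timp2 shares 10141 bases with Cep295nl on its own strand, and Timp3 lies within Syn3, which stayed below 1 FPKM on average in every group.

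Because the members were chosen with earlier results of these data known, the counts below describe them and test nothing about the family. Counted over the members, the Plod1-/- response held 5 of 10 called higher (Mmp2, Mmp9, Mmp14, Mmp19, Timp1) and 2 called lower (Mmp17, Timp4). Of the 12333 genes tested, 8.38% were called higher and 5.51% lower. The saline and Ang II groups did not overlap for 7 of the 10 members, against 29.2% of all genes tested, and for 8, Mmp19 added, without Ang II-treated Plod1-/- mouse 1, against 42.1% of genes. Mmp9 and Mmp19 reached 1 FPKM in 3 saline-treated Plod1-/- mice each and passed the filter with the help of the Ang II-treated mice. The WT response held 1 member called higher (Timp4) and 1 lower (Timp3), where 6.38% and 2.28% of 11994 genes were called, and it left no member without overlap, against 17.3% of all genes. Leaving out Ang II-treated WT mouse 1 separated Mmp2 and Mmp14, both downward, against 20.8% of genes in that setting. The median log2 difference of the proteases was 1.47 in Plod1-/- and -0.31 in WT mice, beside 0.05 and -0.14 over all genes tested, and that of the inhibitors was -0.59 and -0.27. The difference between the responses passed for 6 members, 5 positive (Mmp2, Mmp9, Mmp14, Mmp19, Timp1) and 1 negative (Timp4), with 9.69% and 6.36% of 13263 genes called. These shares depend on scaling. Quantile normalization gave 887 genes higher and 880 lower in the Plod1-/- response, in place of 1034 and 680, and 981 and 1146 for the difference of responses, in place of 1285 and 844. Rescaling without mitochondrial genes gave 1056 and 1014 for that difference. Under both scalings the counts of members called were again 7 and 6.

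**Figure D2:**
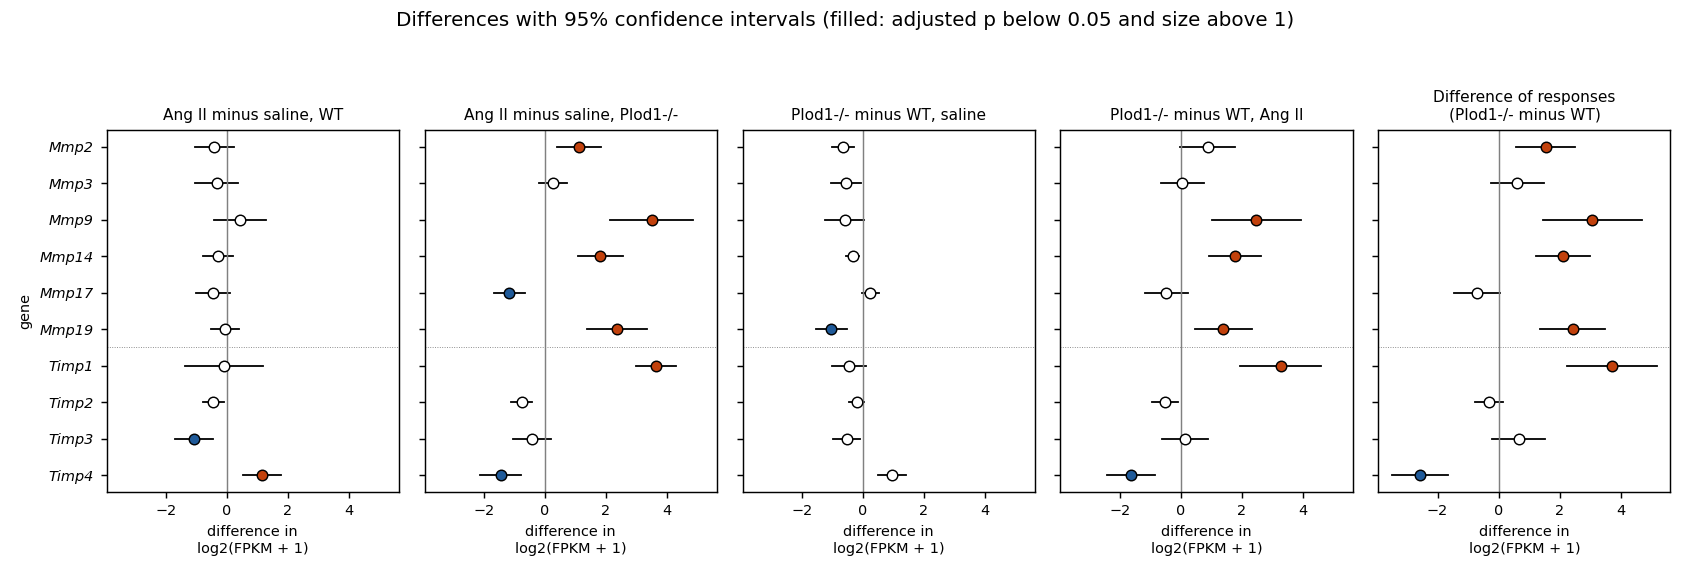
Difference in log2(FPKM + 1) (horizontal axis, linear) of the 10 genes in the 5 comparisons, with 95% confidence intervals as lines. Filled points passed the call, red where higher and blue where lower, and open points did not: 2 in the WT response, 7 in the Plod1-/- response, 1 between genotypes under saline, 5 between genotypes under Ang II and 6 in the difference of responses were filled.

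Under Ang II, Plod1-/- aortas held more Mmp9, Mmp14, Mmp19 and Timp1 RNA and less Timp4 RNA than WT aortas. The log2 differences were 2.48 for Mmp9 (SE 0.664, adjusted p = 0.0185), 1.77 for Mmp14 (SE 0.386, adjusted p = 0.00834), 1.39 for Mmp19 (SE 0.422, adjusted p = 0.0295), 3.27 for Timp1 (SE 0.609, adjusted p = 0.00468) and -1.63 for Timp4 (SE 0.360, adjusted p = 0.0089). That is 4 of 10 higher and 1 lower, where 7.45% and 3.67% of 12356 genes were called. Under quantile normalization the split over all genes was 733 higher and 632 lower, in place of 920 and 453, and 774 and 554 without mitochondrial genes, with 5 members called under each. These groups are the ones that the responses above also use. None of the 10 members was free of overlap between these groups, against 15.1% of genes. Without both mice numbered 1, 6 members (Mmp2, Mmp9, Mmp14, Mmp17, Mmp19 and Timp1) did not overlap, against 34% of genes, and Mmp2 passed the call at 1.37 (adjusted p = 0.0136). It also passed without WT mouse 1 alone (1.17, adjusted p = 0.0359). With all mice, the log2 difference of Mmp2 was 0.88 (95% confidence interval -0.01 to 1.78, adjusted p = 0.12). Mmp19 was the least stable, and only the fits without WT mouse 1 or without Plod1-/- mouse 1 still called it, of 10 with a single mouse left out (adjusted p 0.0547 to 0.0703 in the other 8). With no minimum level required of the genes, Mmp9 lost its call (adjusted p = 0.0566).

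Under saline the genotypes differed little, and mostly in the other direction. Mmp19 was called lower in Plod1-/- mice, at 2.33, 3.46, 1.36, 0.734 and 0.99 FPKM against 4.31, 4.65, 3.7, 5.15 and 3.93 FPKM in WT mice. The groups did not overlap, and the log2 difference was -1.03 (SE 0.228, adjusted p = 0.0312). It was the only member called, where 0.358% of 11999 genes were called higher and 0.408% lower, and this call was lost without WT mouse 2 or 4 or Plod1-/- mouse 3, 4 or 5 (adjusted p 0.0621 to 0.0674). Mmp2 (-0.66, SE 0.162, adjusted p = 0.0391) and Timp4 (0.96, SE 0.209, adjusted p = 0.0303) also did not overlap and passed on p alone, which makes 3 of 10 members without overlap against 9.52% of all genes. Timp4 also passed on size without WT mouse 3 or 4 or Plod1-/- mouse 1 (1.02 to 1.11). The proteases had a median log2 difference of -0.57, with Mmp17 the only positive one (0.24, adjusted p = 0.238), beside -0.01 over all genes.

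The balance of protease to inhibitor RNA was described as the summed FPKM of the 6 proteases over the summed FPKM of the 4 inhibitors in each mouse, with no test, since the members were chosen with results of these data known. The ratio was 0.681, 0.595, 0.593, 0.668 and 0.493 in saline-treated WT mice (mean 0.606 ± 0.075, SD, n = 5). Under Ang II, the WT ratios were 0.645, 0.514, 0.53, 0.581 and 0.611 (0.576 ± 0.0547). In saline-treated Plod1-/- mice it was 0.45, 0.626, 0.51, 0.454 and 0.508 (0.51 ± 0.0711). In Ang II-treated Plod1-/- mice it was 0.238, 0.638, 0.384, 0.42 and 0.691, with a mean of 0.474 ± 0.188. All 4 groups overlapped, and the last was the most spread, holding both the lowest and the highest ratio of the 20 mice. Without mouse 1 its mean was 0.533, above that of saline-treated Plod1-/- mice. Mmp23, which is not a member and is left out of the protease sum, averaged 104 and 61.9 FPKM in WT mice (saline, then Ang II). In Plod1-/- mice it averaged 88 and 67.7 FPKM, and a ratio that counts it was not computed. Over the members alone, inhibitor RNA exceeded protease RNA in every mouse.

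This ratio of Ang II-treated Plod1-/- mice came from larger sums on both sides. Their summed protease level was 355 ± 111 FPKM, against 240 ± 39.6 (WT, saline), 206 ± 108 (WT, Ang II) and 172 ± 30.9 (Plod1-/-, saline). Their summed inhibitor level was 806 ± 243 FPKM, against 395 ± 22.1, 348 ± 151 and 336 ± 25.2 in the same order. The makeup changed with the sums. Timp1 made up 77.4% ± 6.89 of the inhibitor sum in Ang II-treated Plod1-/- mice and 14.6% to 23.1% on average in the other groups, and Timp2 made up 19.1% ± 4.78 against 65% to 72.9%. On the protease side Mmp3 made up 29.7% ± 11.9 against 46% to 48.5%, Mmp14 25.9% ± 6.24 against 12.8% to 14.3%, and Mmp9 9.53% ± 7.09 against 0.8% to 1.97%.

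**Figure D3:**
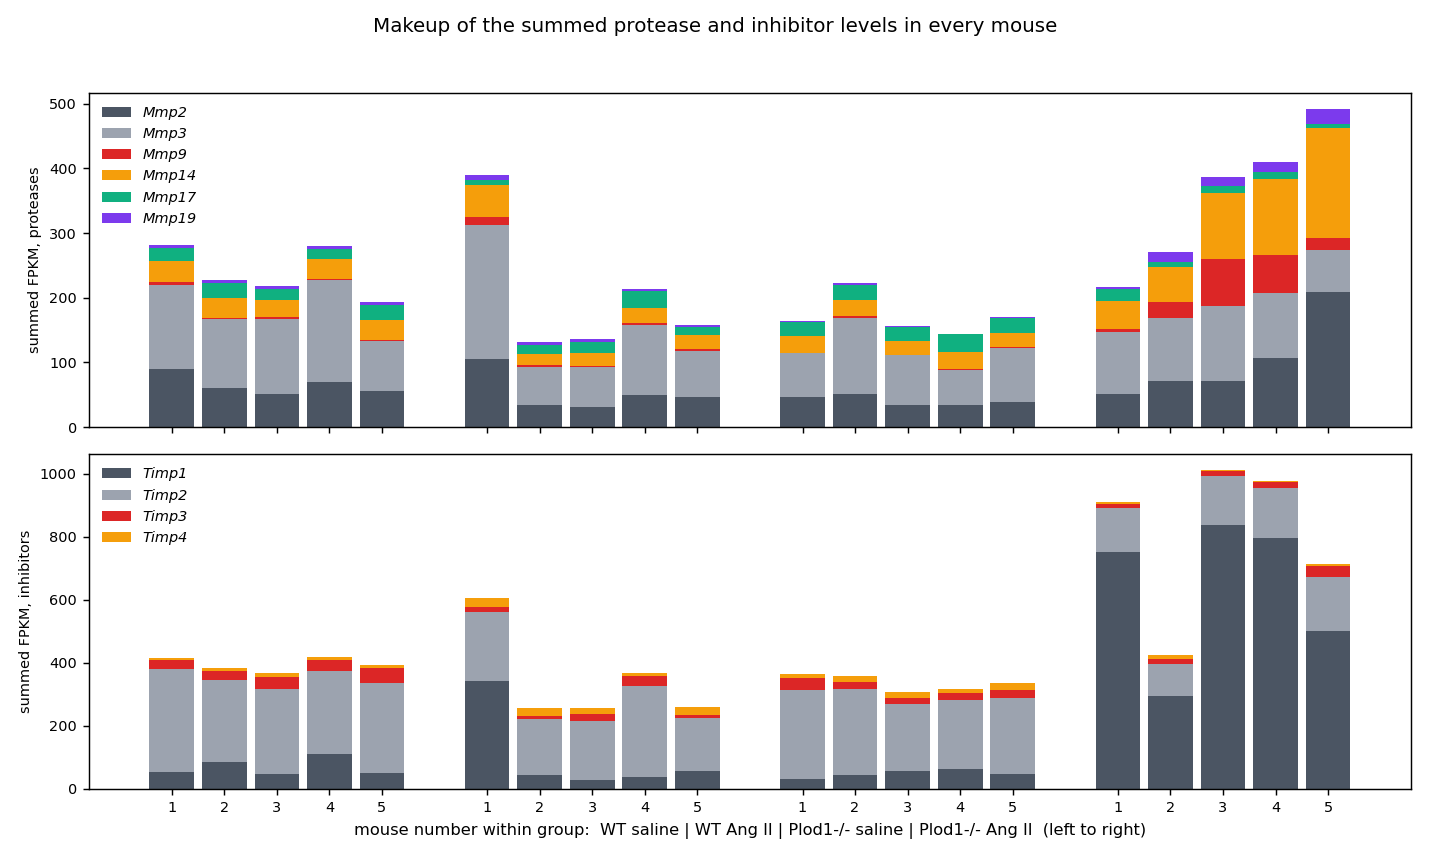
Summed FPKM (linear axes from 0) of the 6 proteases (upper panel) and the 4 inhibitors (lower panel) in each mouse, 1 stacked bar per mouse, with the genes as colours and the groups from left to right. The inhibitor bars of the Ang II-treated Plod1-/- mice reach 424 to 1010 FPKM and consist mostly of Timp1, while Timp2 makes most of the bar in all other mice except Ang II-treated WT mouse 1.

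How the balance reads depended on how the genes were weighted. On the mean of the log2 levels, where every gene counts equally, proteases minus inhibitors was -1.24 ± 0.296 in WT mice given saline and -1.30 ± 0.0733 in WT mice given Ang II. In Plod1-/- mice it was -1.67 ± 0.208 with saline and -0.60 ± 0.472 with Ang II. By that measure the Ang II-treated Plod1-/- mice stood furthest toward the proteases on average, although mouse 1, at -1.37, lay within the WT ranges. By summed FPKM their mean ratio was the lowest of the groups, but not without mouse 1. Pairs of genes whose products act on each other diverged in the same way. The ratio of Mmp14 to Timp2 was 0.108 ± 0.0101, 0.128 ± 0.0552 and 0.0983 ± 0.0136 in the first 3 groups of that order and 0.647 ± 0.257 in Ang II-treated Plod1-/- mice, whose lowest mouse (0.307) was above the highest of the others (0.22). Mmp2 to Timp2 was 0.231 ± 0.0367, 0.256 ± 0.133, 0.165 ± 0.0111 and 0.681 ± 0.331 in the same order of groups. Mmp14 to Timp3, the TIMP of the matrix, was 0.901 ± 0.219 and 1.78 ± 0.942 in WT mice (saline, then Ang II), and 1.04 ± 0.269 and 5.12 ± 1.27 in the Plod1-/- mice. Mmp3 to Timp1 moved the other way, from 1.77 ± 0.715 to 0.172 ± 0.0919, and Mmp9 to Timp1 overlapped in all groups (means of 0.0311 ± 0.0194 to 0.0602 ± 0.0187), with the lowest ratio, 0.00618, in Ang II-treated Plod1-/- mouse 1. The shift was toward the protease where Timp2 or Timp3 was the partner and toward the inhibitor where Timp1 was paired with Mmp3.

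**Figure D4:**
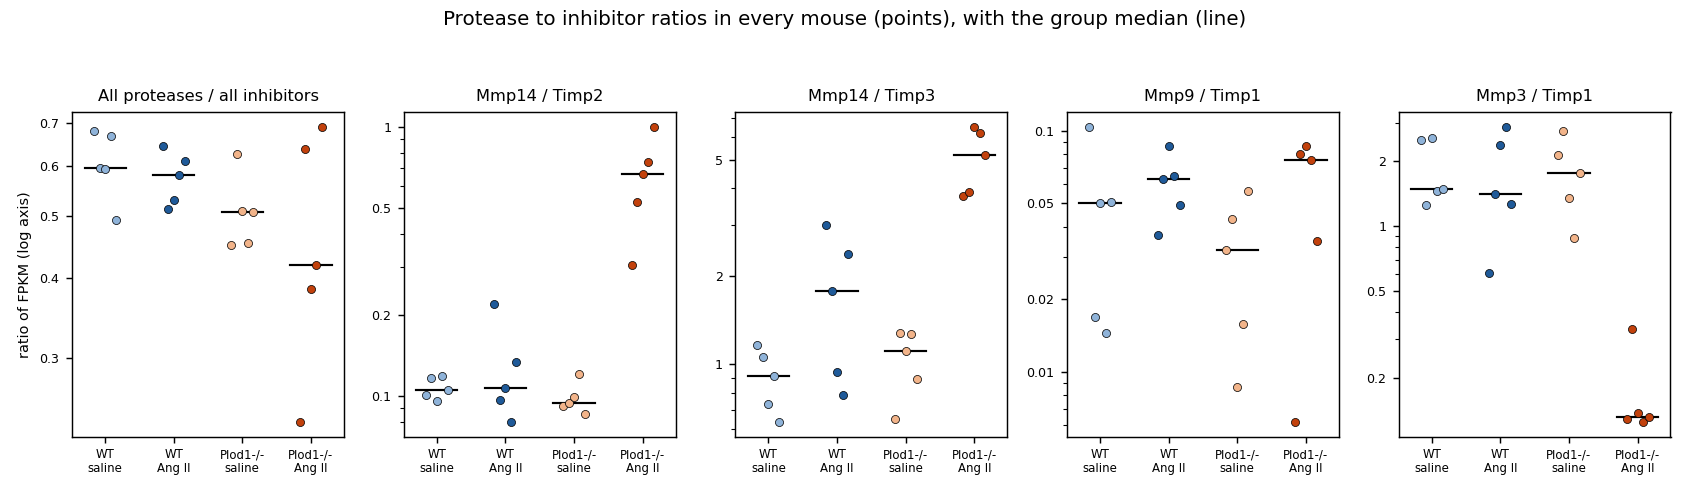
Ratios of FPKM (log axis) in each mouse (points), with the group median (line), for all proteases over all inhibitors and for 4 pairs of genes. The Ang II-treated Plod1-/- mice lie above all others for Mmp14/Timp2 and Mmp14/Timp3, below all others for Mmp3/Timp1. For Mmp9/Timp1, 4 of them lie within the range of the other groups and mouse 1, at 0.00618, lies below every other mouse.

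Cell type markers moved with several members, and their part in these results was not tested. Macrophage markers (7 genes) had a median summed level of 224 and 434 FPKM in WT mice (saline, then Ang II) and 181 and 2640 FPKM in Plod1-/- mice. All 7 were called higher in the Plod1-/- response, but Itgam passed the filter only through the Ang II-treated mice. It reached at most 0.871 FPKM in saline-treated and at least 3.74 FPKM in Ang II-treated Plod1-/- mice. Neutrophil markers (7 genes) had medians of 4.63, 12.1, 2.46 and 315 FPKM in that order, and the 5 genes tested were called higher, but Cxcr2, Csf3r and Retnlg passed the filter only through the Ang II-treated mice, with Plod1-/- saline means of 0.0382, 0.391 and 0.151 FPKM, so that this count had to be high. Mmp9 was highest in the 2 mice with the highest sums of both lists, Ang II-treated Plod1-/- mice 3 and 4 (macrophage sums 4530 and 4340 FPKM). Its highest WT value, 12.6 FPKM, was in the WT mouse with the highest sums (macrophage 1690 FPKM, neutrophil 211 FPKM). Smooth muscle markers had medians of 15800, 8280, 19200 and 4200 FPKM, 6 of 7 were called lower in the Plod1-/- response, and the 3 mice with the lowest sums, 2300 to 4200 FPKM, had Mmp17 at 6.06 to 10.5 FPKM. Fibroblast markers had medians of 844, 645, 596 and 1930 FPKM, and 2 of 7 were called higher in the Plod1-/- response. Between genotypes under Ang II, 2 were called higher and 1 lower, and 3 were called higher in the difference of responses. In Plod1-/- mice the collagen genes of the list carried the sum, Col1a1 at 96.9 ± 29.5 FPKM under saline and 1220 ± 1100 under Ang II and Col3a1 at 82.8 ± 27.7 and 830 ± 635, whereas Dcn (154 ± 49.6 and 137 ± 53.9) and Pi16 (72.7 ± 27.9 and 45.6 ± 11.7) had no higher mean. Both collagen genes were among the 3 genes closest to Mmp14. Adipocyte markers had medians of 104, 3540, 351 and 1120 FPKM. Among Ang II-treated WT mice, mouse 4 had the lowest adipocyte sum (882 FPKM), the highest smooth muscle sum (17000 FPKM) and the lowest Timp4. All 6 adipocyte markers tested were called higher in the WT response, where Timp4 rose, and 2 of 7 in the Plod1-/- response, where Timp4 fell. Skeletal muscle markers (5 genes) had medians of 3.77, 149, 5.78 and 4.38 FPKM, and 3 of 4 tested were called higher in the WT response and 3 of 4 lower in the difference of responses. The share of FPKM from mitochondrial genes was 8.37% to 14.6%, 14.6% to 29.1%, 9.93% to 16.2% and 9.23% to 21.1% in that order of groups. No marker of any list was at 0 in every mouse of a group.

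**Figure D5:**
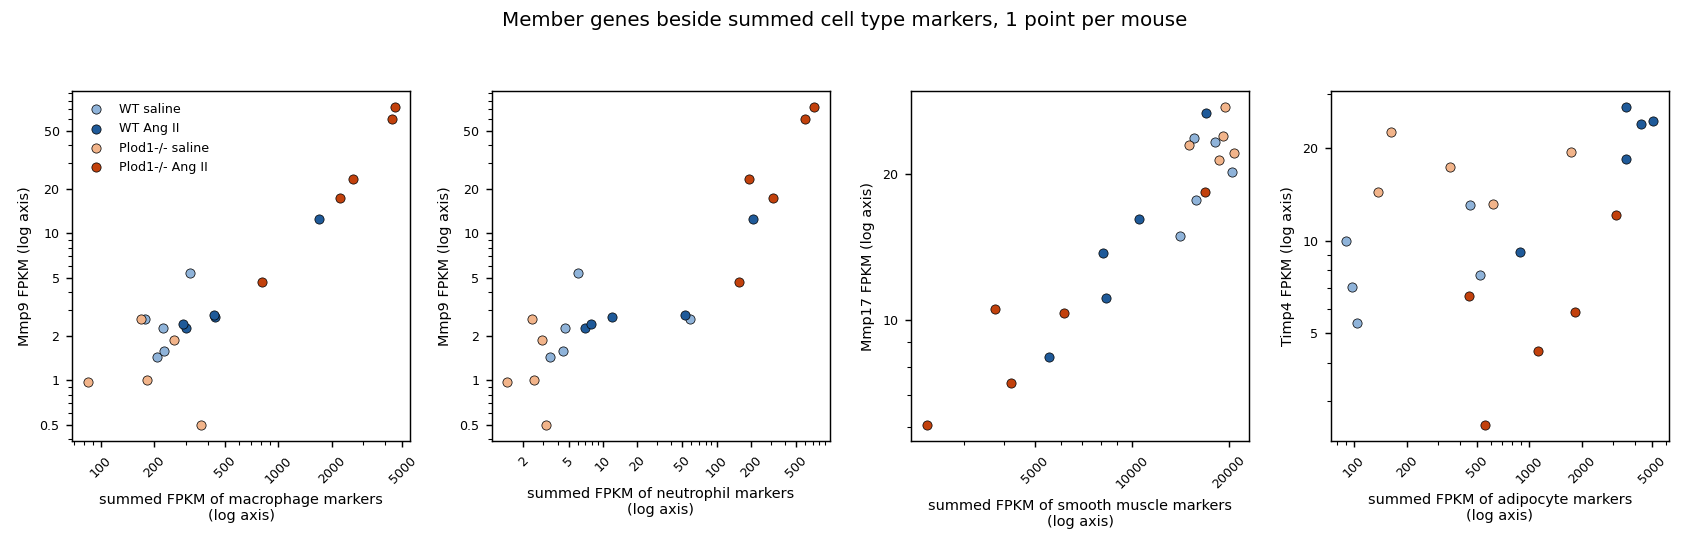
FPKM of Mmp9, Mmp17 and Timp4 (vertical log axes) against the summed FPKM of cell type markers (horizontal log axes), 1 point per mouse, coloured by group. Mmp9 is highest, 72.4 and 59.9 FPKM, at macrophage sums of 4530 and 4340 FPKM, Mmp17 is lowest, 6.06 FPKM, at the smallest smooth muscle sum (2300 FPKM), and Timp4 follows adipocyte sums in no single order.

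The 3 genes with the most similar pattern over the 20 mice were found for each member by Pearson correlation of log2(FPKM + 1) among 13238 genes. The points share 4 groups and their libraries, so the values are descriptive. For Mmp9 these were Cfp (properdin, 0.978), Slc11a1 (a metal transporter of phagocytes, 0.968) and A630001G21Rik (0.966). For Mmp14 they were Hs2st1 (0.977) and the fibrillar collagen genes Col1a1 (0.968) and Col3a1 (0.967), and for Mmp2 they were Bicc1 (0.936), Egfr (0.931) and Fap (0.914). Mmp17 was closest to Rassf3 (0.956), Tpm1 (tropomyosin 1, 0.952) and Ldb3 (0.944). Mmp3 had the weakest likeness, with Icam1 (0.764), Selp (0.751) and Gja5 (0.745), of which Icam1 and Selp encode adhesion molecules of activated endothelium. Mmp19 was closest to Tm9sf4 (0.967), Gmfb (0.95) and Eps8 (0.948), and Timp1 to 1110038B12Rik (0.972), Ssr4 (0.964) and Pgs1 (0.962). Timp2 was closest to Trim56 (0.922), Ddr2 (a collagen receptor, 0.909) and Oxct1 (0.907), Timp3 to Rgmb (0.943), Cdc23 (0.936) and Tmem167b (0.927), and Timp4 to Fbxo44 (0.908), Snx21 (0.879) and Acy3 (0.876). Within the family, the largest positive values were 0.874 for Mmp14 with Timp1 and 0.861 for Mmp9 with Mmp14, and the most negative was -0.86 for Mmp17 with Mmp19.

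Most of the other 17 mouse Mmp genes had little RNA, and 3 to 5 of the 17 passed the filter in each comparison. Mmp23 was the exception, at 49.9 to 130 FPKM over all mice, more than most members, and it passed on p but not on size in WT mice (log2 difference -0.74, SE 0.153, adjusted p = 0.00564) and Plod1-/- mice (-0.39, SE 0.142, adjusted p = 0.0438). Mmp8, the collagenase of neutrophils, was the only one of the 17 called in any comparison, with a difference of responses of 1.77 (SE 0.618, adjusted p = 0.0307). It passed the filter there mostly through the Ang II-treated Plod1-/- mice and was not tested in the Plod1-/- response itself. It stood at 0.0278 to 0.0588 FPKM in saline-treated and at 0.936, 2.77, 2.61, 12.4 and 4.18 FPKM in Ang II-treated Plod1-/- mice, and at 4.33 FPKM in Ang II-treated WT mouse 1 against 0.144 to 0.334 FPKM in the other 4. Mmp28 passed on p but not on size by limma in the WT response (0.45, adjusted p = 0.019). It did so too between genotypes under saline (0.36, adjusted p = 0.0447) and in the difference of responses (-0.81, adjusted p = 0.0183). The remaining genes reached at most 10.9 FPKM (Mmp11) in any mouse, and Mmp12 (macrophage elastase) and Mmp13 (collagenase 3) reached at most 1.76 and 1.69 FPKM. Mmp11 had a higher mean than the members Mmp9 and Mmp19 in both WT groups and in saline-treated Plod1-/- mice.

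Of 19 genes that activate, inhibit, bind or clear MMPs, 16 were tested in the Plod1-/- response, and 6 were called higher and 3 lower, beside the 8.38% and 5.51% of all genes given above. Plau (urokinase) and its receptor gene Plaur, which start the plasmin cascade that activates pro-MMPs, rose by log2 1.99 (SE 0.276) and 2.32 (SE 0.286). Cd44, which encodes a hyaluronan receptor that holds MMP9 and MMP14 at the cell surface, rose by 2.30 (SE 0.210), and Lcn2, whose product binds MMP9, by 3.88 (SE 0.392). Thbs2 (1.97) also rose, as did Tfpi2 (2.30), which passed the filter only through the Ang II-treated Plod1-/- mice (at least 2.59 FPKM, against a mean of 0.229 ± 0.121 under saline). Reck, a membrane-anchored inhibitor of MMP2, MMP9 and MMP14, fell by 1.47 (SE 0.134, adjusted p = 4.19e-05) from 23.5 ± 4.29 to 7.78 ± 1.02 FPKM, Serpine2 fell by 1.91 (SE 0.293) and the proprotein convertase gene Pcsk6 fell by 1.04. In WT mice Reck (-0.86, SE 0.268, adjusted p = 0.0287) and Serpine2 (-0.95, SE 0.185, adjusted p = 0.00443) passed on p but not on size. Plaur (-0.94, adjusted p = 0.0209), Cd44 (-0.68, adjusted p = 0.0318), Thbs2 (-0.51, adjusted p = 0.0444) and Pcolce (-0.50, adjusted p = 0.042) did so too, downward. Pcsk6 did so upward (0.69, adjusted p = 0.0163 by limma). The differences of responses of Reck (-0.61, adjusted p = 0.134) and Serpine2 (-0.97, adjusted p = 0.0409) were not called. Lcn2 was not called in WT mice by limma (1.89, SE 1.01, adjusted p = 0.149). Its Ang II-treated WT values had a median of 3.94 and a highest value of 218 FPKM. The difference of responses of Lcn2 was not called either (1.99, adjusted p = 0.187). The difference of responses passed, among others, in the positive direction for Tfpi2, Plau, Plaur, Cd44, Thbs2 and Pcolce and in the negative direction for Pcsk6. Between genotypes under Ang II, 6 were called higher and 2 lower, beside 7.45% and 3.67% of all genes, and under saline none of 15 was called by limma, 4 of them having an unadjusted p below 0.05. Of these 4, Pcolce (-0.80, SE 0.167, adjusted p = 0.0277) passed on adjusted p but not on size. The medians over the list were 0.78 in the Plod1-/- response and -0.34 in the WT response, beside 0.05 and -0.14 over all genes.

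Promoter windows of 300 bases, from 250 before to 50 after the annotated start, were matched in RefSeq (GRCm38.p6) for 6 of the 10 members, Mmp3, Mmp14 and the 4 Timp genes. Those of Timp1 and Timp4 are shown because these inhibitors moved in opposite directions in Plod1-/- mice. Capitals mark the Sp1 box searched as GGGCGG on both strands.
Timp1 (chrX:20869916-20870215, + strand): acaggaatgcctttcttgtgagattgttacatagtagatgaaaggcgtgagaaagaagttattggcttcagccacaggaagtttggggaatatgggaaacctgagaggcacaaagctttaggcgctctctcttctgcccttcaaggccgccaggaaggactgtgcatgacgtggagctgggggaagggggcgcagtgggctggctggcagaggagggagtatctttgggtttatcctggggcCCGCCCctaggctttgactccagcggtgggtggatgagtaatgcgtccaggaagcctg
Timp4 (chr6:115252156-115252455, - strand): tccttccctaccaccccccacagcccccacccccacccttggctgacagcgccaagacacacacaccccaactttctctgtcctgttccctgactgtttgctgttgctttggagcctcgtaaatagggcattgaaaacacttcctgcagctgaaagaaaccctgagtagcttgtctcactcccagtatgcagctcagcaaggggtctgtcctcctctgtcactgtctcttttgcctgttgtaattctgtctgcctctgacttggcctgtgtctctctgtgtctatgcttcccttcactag
The Sp1 box occurred once in the windows of Timp1 and Timp2, at 2 places in those of Mmp14 and Timp3, and in 35.7% of all 32851 windows. The AP-1 letters TGANTCA occurred in the window of Mmp3, as TGAGTCA, and in 7.81% of all windows. The TATA box letters TATAAA were also in the window of Mmp3 and in 13.6% of all. The NF-kB letters GGANTTTCC were in none of the 6 and in 1.25% of all, and the window of Timp4 held none of the 4 motifs. A match is a description of the letters only.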

How the data were processed

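RNA of whole abdominal aorta was sequenced by the authors (TruSeq RNA V2 libraries, which do not mark strand). The deposited values are FPKM per gene for each of 20 mice. Per the labels, reads were aligned to mm10, and the submitters' processing notes name HISAT2 2.1.0, Bowtie2 2.2.3 and HTSeq 0.6.0. The study's methods name stringtie, cuffquant and cuffnorm for the FPKM. Read counts were not analysed here, so depth is unknown and no count model was run.

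Groups came from genotype and treatment labels. The FPKM were tested with limma 3.58.1 (R 4.3.3; trended empirical Bayes, two-sided) on log2(FPKM + 1) over genes with at least 1 FPKM in at least 5 mice, the study's thresholds being kept (adjusted p below 0.05, log2 difference above 1). The 4 pairs of groups used 10 mice each, and the difference of responses used all 20. The code was tested on simulated data. Alternatives were another pseudocount (0.1), no filter, a replicate block, 1 common fit, quantile normalization, rescaling, weights, gene-wise variances, the libraries with Xist RNA left out, p alone and each mouse left out. A setting without both Ang II-treated mice numbered 1 was added after seeing the data.

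The members and lists were chosen with earlier results of these data known. Named genes were the members, listed genes that passed the call in any comparison and 3 like genes per member. The result of 1 listed gene is not reported here. Mmp23, Mmp11, Mmp12, Mmp13 and Mmp28 were named after their values were seen. Gene positions and coding stretches came from GENCODE M21 (GRCm38). The labels' extraction text also mentions array labelling, which was not used here.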

Additional observations from a re-analysis of the deposited data

Results flagged for a closer look

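In 4 of 44 groups of 5 mice, 1 mouse stood apart from the other 4 by Dixon's 95% criterion, and chance gives such a mouse in about 1 in 20 groups. The criterion was applied to log2(FPKM + 1) for the genes and to the plain value for the protease to inhibitor ratio. Levels below are in FPKM, and the gaps and ranges are on the log2 scale. Mmp9 stood at 12.6 FPKM in Ang II-treated WT mouse 1, with the gap to the next mouse taking up 0.902 of the group's range. Mmp14 was 48.4 FPKM in the same mouse (0.717 of the range). Mmp19 was 3.22 FPKM in Ang II-treated Plod1-/- mouse 1 (0.742 of the range), the lowest of its group. Timp3 was 39.7 FPKM in saline-treated Plod1-/- mouse 1 (0.737 of the range), the highest of its group.

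The effect of Ang II differed between the genotypes, by limma's interaction term over 20 mice, for Mmp2 (1.54 log2 units, adjusted p = 0.0146), Mmp9 (3.06, adjusted p = 0.00529), Mmp14 (2.10, adjusted p = 0.00112), Mmp19 (2.42, adjusted p = 0.00162), Timp1 (3.72, adjusted p = 7.59e-04) and Timp4 (-2.59, adjusted p = 3.39e-04). Each of these 6 passed the call in all 20 fits that left out 1 mouse.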

How the results depend on the processing

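The numbers of members called in the Plod1-/- response (7) and in the difference of responses (6) were the least dependent on the processing. Leaving out 1 mouse at a time gave 6 to 7 and 6 to 6. It gave 1 to 2 for the WT response, 4 to 6 between genotypes under Ang II and 0 to 2 under saline. Without the filter on low values, 1 member was called in the WT response, 3 between genotypes under Ang II (Mmp9 and Mmp19 lost) and 0 under saline, where more genes were tested. Under saline, a pseudocount of 0.1 gave 2 and adjusted p alone 3, and 1 fit of all 4 groups, gene-wise variances and leaving out the libraries with Xist RNA gave 0 each (Mmp19 at adjusted p = 0.155, 0.0631 and 0.0674 by limma). The cause was not tested.

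With the replicate number as a block, 3 members were called between genotypes under Ang II (Mmp9 at adjusted p = 0.0614 and Mmp19 at 0.0801 were lost, by limma) and 0 under saline, and the other counts did not move. The numbers did not pair the mice: same-numbered mice correlated at -0.0657 to 0.216 in the WT and -0.159 to 0.434 in the Plod1-/- response, and at -0.372 to 0.267 and -0.315 to 0.171 between genotypes under Ang II and saline. Mice correlated best with their own number in 0, 2, 1 and 0 of 5 pairs. Without both Ang II-treated mice numbered 1, 6 members were called between genotypes and 7 in the difference of responses. Leaving out Ang II-treated WT mouse 4 alone gave 4 between genotypes and 6 in the difference of responses.

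The summed ratio over secreted proteases alone was 0.479 (WT, saline), 0.451 (WT, Ang II), 0.368 (Plod1-/-, saline) and 0.333 (Plod1-/-, Ang II), and the mean log2 measure was -1.24, -1.30, -1.67 and -0.60 in the 4 groups. Leaving out 1 mouse gave ratios of 0.587 to 0.634, 0.559 to 0.592, 0.481 to 0.525 and 0.42 to 0.533. Directions reversed for differences near 0 that had not passed: Timp1 in the WT response (range -0.712 to 0.201, above 0 without saline-treated mouse 2 or 4 or Ang II-treated mouse 2, 3 or 4), Mmp19 in the WT response (-0.252 to 0.0854, above 0 without Ang II-treated mouse 4), Mmp3 between genotypes under Ang II (-0.0495 when rescaled without mitochondrial genes, and -0.0896 to 0.353 with 1 mouse left out, below 0 without WT mouse 2, 3 or 5 or Plod1-/- mouse 3) and Timp3 there (-0.0892 to 0.347, below 0 without WT mouse 2 or 5 or Plod1-/- mouse 5). FPKM keep no depth, so counting error could not be set apart from the spread between mice.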
